A study of Homo sapiens with 10 samples.

Results

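The genes of the mitochondrial ribosomal proteins were followed in KYSE-410, an established line derived from a squamous carcinoma of the human esophagus, under 2 inhibitors of the lipid phosphatase SHIP2. Members were all genes of the deposited expression table whose symbol is MRPL or MRPS, a number and at most 1 further letter (A, B or C), a rule that reads the symbol alone. The rule found 78 of 58302 genes, 49 with large-subunit symbols (MRPL) and 29 with small-subunit symbols (MRPS). All 78 passed the filter on low values, which asked for an average of 1 CPM or more in 1 or more groups. CPM is a gene's reads scaled by library size.

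The 4 groups were K149 at 2 µM (3 libraries) with its DMSO control (3 libraries), and AS1949490 at 20 µM (2 libraries) with a DMSO control of its own (2 libraries). All cells were collected after 48 h, and the control solvent was 0.1% DMSO. The doses of the inhibitors differ, so their effects are set side by side and each is taken against its own control. All libraries come from this 1 cell line, and the labels do not say that the libraries of a group were separate cultures. Any p-value therefore reflects the spread among these libraries, which may be technical.

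The mitochondrial ribosome makes the few proteins that are encoded by mitochondrial DNA, all of them core subunits of the respiratory chain and ATP synthase. Its RNAs come from mitochondrial DNA, whereas every one of its proteins is encoded in the nucleus, made in the cytosol and imported. The small subunit decodes the mRNA, and the large subunit joins the amino acids and feeds the growing chain to the inner membrane. Some proteins descend from the bacterial ribosome and others were gained by mitochondria.

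Libraries held 18.37 to 26.33 M reads, as inferred from the spacing of CPM values. The most were in the AS1949490 libraries (26.33 and 26.16 M), against 18.37 and 20.77 M in their DMSO libraries. The 7 squamous markers summed to 207.6 to 224.5 CPM with K149, against 372 to 379.5 CPM in its DMSO libraries. They summed to 528.4 to 544.6 CPM with AS1949490, against 517.8 to 559.1 CPM in its DMSO libraries. SFN, KRT17 and TP63 carried most of that signal, while KRT14 stayed at or below 1.12 CPM in every group mean. Single markers moved in both directions: KRT17 and KRT5 fell with both inhibitors, DSG3 rose with both (log2 fold 0.69 ± 0.13 with K149 and 1.54 ± 0.16 with AS1949490), and SFN fell with K149 (-1.16 ± 0.07) and rose with AS1949490 (0.43 ± 0.09). Of the markers of other cell types, CDX2 was at 0 in all groups, and PTPRC, CD3E and COL3A1 averaged below 0.5 CPM in each group. Columnar VIL1 fell with K149 (-0.74 ± 0.10), as did endothelial VWF (-0.91 ± 0.13, a mean of 0.25 CPM with K149 and 1.37 CPM in its DMSO libraries). Fibroblast COL1A1 fell with AS1949490 (-0.43 ± 0.10), and the macrophage marker CD68 rose with K149 (0.26 ± 0.08) and with AS1949490 (0.77 ± 0.09). INPPL1, which encodes SHIP2, was higher with both inhibitors (log2 fold 0.61 ± 0.07 SE with K149 and 0.55 ± 0.08 with AS1949490), and inhibition of the enzyme cannot be read from its transcript. The part of these shifts in the results on the members was not tested.

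Member transcripts covered a wide range of levels. Per kilobase of annotated exon, and averaged over the 10 libraries, the large-subunit genes ran from 1.94 to 234.6 CPM per kb with a median of 19.3, and the small-subunit genes from 5.14 to 58.8 with a median of 17.9. The genes of cytosolic ribosomal proteins had a median of 105.1 CPM per kb. MRPL45, whose protein ties the ribosome's exit site to the inner membrane, had the highest level of all members, 234.6 CPM per kb. MRPL15 (98.7) and MRPL51 (96.1) followed it in the large subunit, and MRPL46 (3.62) and MRPL23 (1.94), a protein of the exit tunnel, were lowest. In the small subunit MRPS35 (58.8), MRPS10 (55.8) and MRPS34 (51.5) were highest, and MRPS33 (7.36) and MRPS11 (5.14) were lowest. The order depends on the length used. Per kilobase of the longest transcript, MRPL51 (120.7) stood above MRPL15 (102.4), and MRPL23 (6.30) above MRPL46 (4.18) and MRPL41 (4.56). By that length MRPS18A (59.7) stood above MRPS10 (55.8) and MRPS34 (54.3). Reads of MRPL51 are uncertain, because 31.3% of its exon bases also belong to other genes, with the largest overlap for NCAPD2.

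With K149, transcripts of the mitochondrial ribosome were lower as a group. In the large subunit 39 of 49 genes fell and 1 rose at an adjusted p under 0.05 (limma with Benjamini-Hochberg adjustment over 17837 genes), and in the small subunit 22 of 29 fell and none rose. Among all genes tested 66.4% were called, 30.6% lower and 35.8% higher. The median log2 fold was -0.36 for the large and -0.27 for the small subunit, against 0.04 for all genes tested. A fold of this kind is on the log2(CPM + 1) scale, and CPM is a share of the library: fewer cells of a kind and less RNA per cell cannot be told apart in bulk RNA. All 3 K149 libraries lay below all 3 DMSO libraries for 60 of the 78 members, a pattern seen in 32.6% of all genes tested, and above them for 2 members (MRPL10 and MRPL41), against 37.7%.

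**Figure D1:**
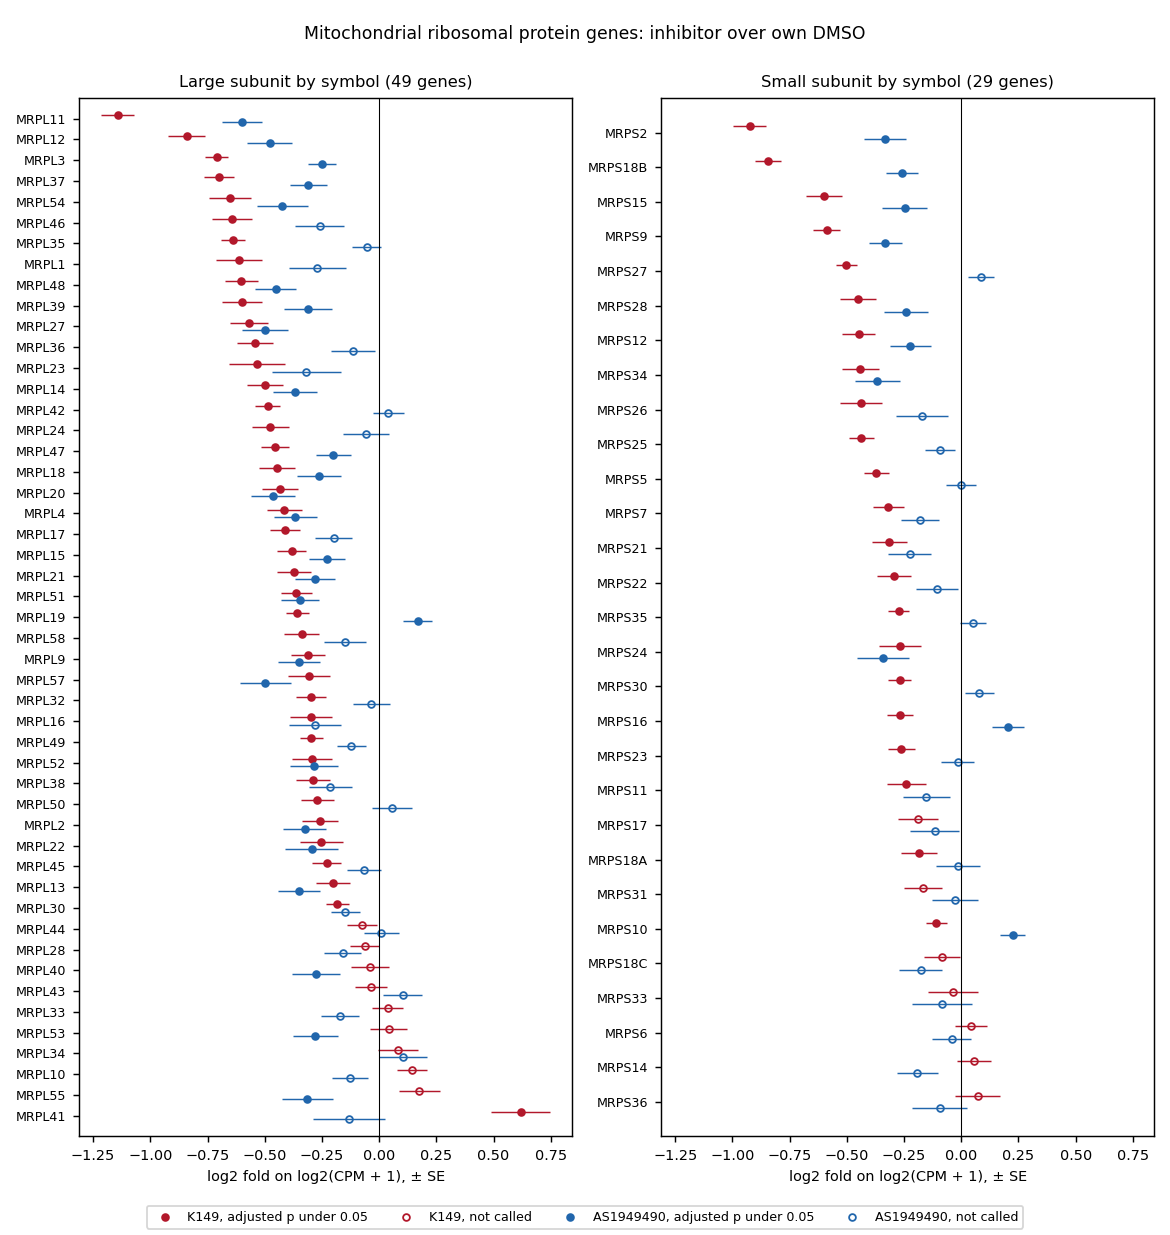
Log2 fold ± SE of each of the 49 large-subunit genes (left) and 29 small-subunit genes (right), inhibitor over its own DMSO, K149 in red (upper of each pair) and AS1949490 in blue, with filled points for an adjusted p under 0.05. With K149, 61 filled points lie below 0 and 1 (MRPL41) above; with AS1949490, 33 lie below and 3 above.

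MRPL11, a protein of the stalk base where elongation factors dock, had the lowest fold of the members under both inhibitors. Its gene spans chr11:66435075-66466738 (GRCh38, minus strand), and it was also among the more abundant members. MRPL11 had 110.5, 135.8 and 113.4 CPM with K149, against 257.6, 264.7 and 272.2 CPM in its DMSO libraries. It had 192.4 and 203.1 CPM with AS1949490, against 317.2 and 283.3 CPM in its DMSO libraries. The groups did not overlap in either arm, and K149 replicate 2 was the highest of its group. The log2 fold was -1.14 ± 0.07 with K149 (limma, adjusted p = 7.95e-09) and -0.60 ± 0.09 with AS1949490 (limma, adjusted p = 0.000102).

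MRPL12, the stalk protein that recruits elongation factors, averaged 34.5 ± 3.36 CPM with K149 and 62.4 ± 2.59 CPM in its DMSO libraries (SD, n = 3 each), a log2 fold of -0.84 ± 0.08. It averaged 55.3 ± 4.38 CPM with AS1949490 and 77.6 ± 9.74 CPM in its DMSO libraries (SD, n = 2 each), a log2 fold of -0.48 ± 0.10. Both passed the test, but 68.2% of the exon bases of MRPL12 also belong to other genes, so its reads are uncertain. The largest overlap was with the gene AC139530.2 on the same strand. AC139530.2 averaged 53.6 ± 4.96 CPM with K149 and 105.5 ± 4.58 CPM in its DMSO libraries, and 83.0 ± 7.74 CPM with AS1949490 and 105.8 ± 12.1 CPM in its DMSO libraries. MRPL10, which anchors MRPL12 to the ribosome, had 43.2, 44.7 and 41.9 CPM with K149, against 38.5, 38.5 and 40.1 CPM in its DMSO libraries. The MRPL10 groups did not overlap, but its log2 fold of 0.14 ± 0.06 missed the threshold (limma, adjusted p = 0.0633) and passed it in a fit of the K149 arm alone (limma, adjusted p = 0.0347).

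MRPL3, which lies near the catalytic centre of the large subunit, had 99.9, 110.8 and 100.2 CPM with K149, against 168.6, 166.4 and 175.2 CPM in its DMSO libraries. With AS1949490 it had 132.4 and 135.0 CPM, against 162.2 and 156.2 CPM in its DMSO libraries. Treated libraries were below all controls in both arms, with log2 folds of -0.71 ± 0.05 with K149 and -0.25 ± 0.06 with AS1949490. The other large-subunit leaders under K149 were MRPL37 (log2 fold -0.70 ± 0.06), MRPL54 (-0.65 ± 0.09) and MRPL46 (-0.64 ± 0.09), all 3 of them proteins gained by mitochondria.

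MRPL41, a mitochondria-specific protein of the large subunit, was the 1 member that rose with K149. Its gene lies at chr9:137551199-137552555 (GRCh38, plus strand) and was among the least abundant members. MRPL41 had 5.1, 8.1 and 7.0 CPM with K149, against 3.7, 4.0 and 4.2 CPM in its DMSO libraries. It had 6.2 and 5.7 CPM with AS1949490, against 6.3 and 7.0 CPM in its DMSO libraries. All K149 libraries were above their controls, though spread more widely, and the DMSO libraries of the AS1949490 arm stood above those of the K149 arm. The log2 fold was 0.62 ± 0.13 with K149 (limma, adjusted p = 0.000738) and -0.13 ± 0.16 with AS1949490 (limma, adjusted p = 0.501).

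In the small subunit, MRPS2, a small-subunit protein kept from bacteria, had the lowest fold under K149. MRPS2 (chr9:135499984-135504673, GRCh38, plus strand) had 25.2, 29.6 and 25.2 CPM with K149, against 53.0, 50.6 and 50.5 CPM in its DMSO libraries. It had 57.1 and 62.2 CPM with AS1949490, against 80.3 and 70.6 CPM in its DMSO libraries. Groups did not overlap in either arm, and its DMSO level differed between the arms (log2 difference -0.54, K149 arm minus AS1949490 arm). The log2 fold was -0.92 ± 0.07 with K149 (limma, adjusted p = 9.58e-08) and -0.33 ± 0.09 with AS1949490 (limma, adjusted p = 0.00726). Without DMSO replicate 1 or AS1949490 replicate 1 of that arm, the adjusted p of MRPS2 under AS1949490 was 0.0652 and 0.0759 (limma).

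MRPS18B had 49.4, 50.2 and 45.5 CPM with K149, against 86.6, 87.0 and 89.0 CPM in its DMSO libraries. With AS1949490 it had 65.7 and 68.3 CPM, against 84.7 and 76.3 CPM in its DMSO libraries. The treated groups were lower without overlap, with log2 folds of -0.84 ± 0.06 with K149 and -0.26 ± 0.07 with AS1949490. Without DMSO replicate 1 or AS1949490 replicate 1 of that arm, the adjusted p of MRPS18B under AS1949490 was 0.0634 and 0.0613 (limma). MRPS15 (-0.60 ± 0.08 with K149) and MRPS9 (-0.59 ± 0.06), both kept from bacteria, completed the small-subunit leaders.

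MRPS18B is 1 of 3 paralogs of a single bacterial protein, and the other two had folds closer to 0. MRPS18A, which despite its symbol sits in the large subunit of the assembled ribosome, averaged 56.5 ± 4.83 CPM with K149 and 64.4 ± 3.2 CPM in its DMSO libraries (SD, n = 3 each), and the groups overlapped. Its log2 fold of -0.19 ± 0.08 was at the threshold (limma, adjusted p = 0.0494) and lost the call under 11 alternatives. Other genes share 47.0% of its exon bases, with the largest overlap for RSPH9. MRPS18C averaged 34.4 ± 3.40 CPM with K149 and 36.4 ± 1.84 CPM in its DMSO libraries, a log2 fold of -0.09 ± 0.08 that was not called (limma, adjusted p = 0.353). Reads of MRPS18C are uncertain too, since 40.2% of its exon bases also belong to other genes, with the largest overlap for ABRAXAS1. With AS1949490, MRPS18A (log2 fold -0.01 ± 0.10) and MRPS18C (-0.18 ± 0.10) were not called. MRPS18C was called lower there under TMM scaling (-0.26, limma, adjusted p = 0.0355), median-ratio scaling, edgeR, DESeq2 (-0.29, adjusted p = 0.0249) and without DMSO replicate 2 of that arm. The differences between the paralogs were not tested.

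Symbols and structure part ways for 2 further members. MRPS30 belongs to the large subunit in the assembled ribosome, and it fell with K149 (58.1 ± 1.29 CPM, against 70.3 ± 3.35 CPM in its DMSO libraries, SD, n = 3 each). MRPS36 has been assigned to the 2-oxoglutarate dehydrogenase complex rather than the ribosome. It averaged 29.1 ± 3.28 CPM with K149 and 27.5 ± 1.08 CPM in its DMSO libraries, with overlapping groups and no call (limma, adjusted p = 0.544).

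The origin of the proteins was set beside their folds, with 30.6% of all genes tested lower with K149 and 19.5% with AS1949490. Of the large-subunit genes with a bacterial homologue 25 of 29 fell with K149, with a median log2 fold of -0.41, and of the mitochondria-specific ones 15 of 20 fell and 1 rose, with a median of -0.29. In the small subunit 12 of 16 genes with a bacterial homologue fell (median -0.29), as did 7 of 9 mitochondria-specific genes (median -0.29). With AS1949490, 15 of 29 large-subunit genes with a bacterial homologue fell and 1 rose (median -0.27), and 9 of 20 mitochondria-specific ones fell (median -0.24). In the small subunit 6 of 16 genes with a bacterial homologue fell and 2 rose (median -0.19), and 1 of 9 mitochondria-specific genes fell (median -0.08). These classes follow the structure, so MRPS30 counts among the large-subunit proteins, and 4 members were not classed.

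With AS1949490, fewer members passed the test and the large subunit carried most of them. In the large subunit 25 of 49 genes fell and 1 rose, and in the small subunit 8 of 29 fell and 2 rose. Among all genes tested 51.6% were called, 19.5% lower and 32.1% higher. The median log2 fold was -0.27 for the large and -0.12 for the small subunit, against 0.08 for all genes tested. The 2 AS1949490 libraries lay below both DMSO libraries for 38 of 49 large-subunit and 14 of 29 small-subunit genes, a pattern found in 30.5% of all genes tested, and above them for 8 members, against 44.5%.

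These counts depend on single libraries and on the scaling. Members that fell numbered 33 with all libraries, 11 without DMSO replicate 1 of that arm, 50 without DMSO replicate 2, 12 without AS1949490 replicate 1 and 24 without AS1949490 replicate 2. TMM scaling gave 49 that fell and none that rose. Over all genes, TMM moved the share of calls that were higher with AS1949490 to 50.4%, against 62.2% with CPM as deposited, and their median log2 fold to 0.01. Members that fell with K149 numbered 61 with all libraries and 54 to 63 under the alternatives run for that comparison.

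**Figure D2:**
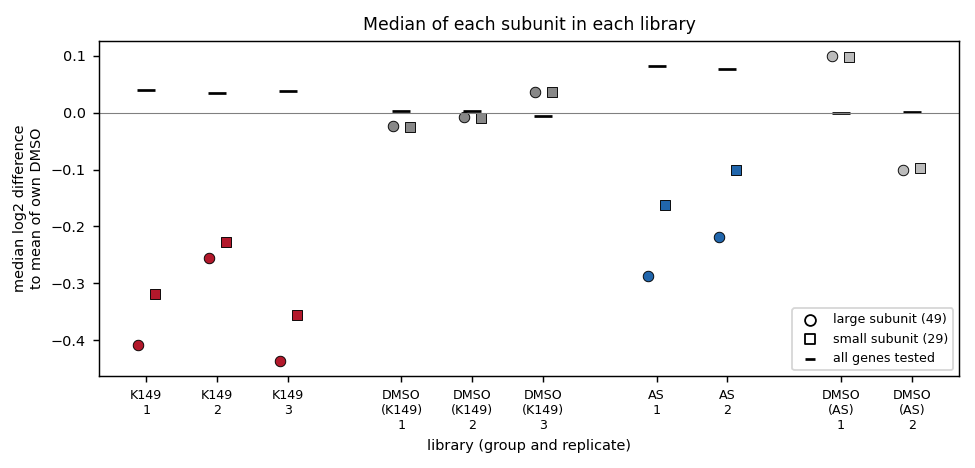
Median log2 difference of the large-subunit (circles) and small-subunit (squares) genes in each library to the mean of its own DMSO libraries, with dashes for all genes tested. The 3 K149 libraries lie at -0.41, -0.26 and -0.44 for the large subunit, the 2 AS1949490 libraries at -0.29 and -0.22, and the 2 DMSO libraries of the AS1949490 arm at 0.10 and -0.10.

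The DMSO libraries of the AS1949490 arm differed in their member medians. For all 78 members, the median log2 difference to the mean of the arm's DMSO libraries was -0.36, -0.24 and -0.42 in the K149 libraries, against -0.02, -0.01 and 0.04 in the DMSO libraries. It was -0.26 and -0.16 in the AS1949490 libraries, against 0.10 and -0.10 in their DMSO libraries. The DMSO libraries of the AS1949490 arm thus lay apart from each other by about as much as AS1949490 replicate 2 lay from their mean. Summed over members, the level was 3823, 4173 and 3716 CPM with K149, against 4994, 5029 and 5154 CPM in its DMSO libraries. The sum was 4506 and 4757 CPM with AS1949490, against 5629 and 4967 CPM in its DMSO libraries, and neither arm's sums overlapped. RNAs that stay in the nucleus (MALAT1, NEAT1 and KCNQ1OT1) summed to 898.3 CPM in K149 replicate 1 and to 251.8 and 256.3 CPM in the other K149 libraries, against 172.3 to 266.3 CPM in the DMSO libraries of that arm. Without K149 replicate 1, 56 members fell with K149. The part of that RNA in the member values was not tested beyond this.

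After MRPL11, the large-subunit genes that fell most with AS1949490 were MRPL27 (log2 fold -0.50 ± 0.10), MRPL57 (-0.50 ± 0.11), MRPL12, MRPL20 (-0.46 ± 0.10) and MRPL48 (-0.45 ± 0.09). MRPL27 and MRPL20 are kept from bacteria, and MRPL27 lies near the catalytic centre. MRPL27 had 36.8 and 38.2 CPM with AS1949490, against 56.7 and 50.3 CPM in its DMSO libraries. Both treated libraries were below both controls, as they were for MRPL57, MRPL20 and MRPL48. In the small subunit MRPS34 (-0.37 ± 0.10), MRPS24 (-0.34 ± 0.11), MRPS2 and MRPS9 (-0.33 ± 0.07) led. MRPS24 shares 23.2% of its exon bases with other genes, with the largest overlap for a readthrough gene, URGCP-MRPS24. That gene averaged 72.2 ± 1.38 CPM with AS1949490 and 88.1 ± 13.0 CPM in its DMSO libraries (SD, n = 2 each). Without DMSO replicate 1, MRPS34 and MRPS24 were not called (limma, adjusted p = 0.0637 and 0.2), and MRPS24 was not called without either AS1949490 library (limma, adjusted p = 0.0922 and 0.07).

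MRPL19, MRPS10 and MRPS16 rose with AS1949490 and fell with K149. Their DMSO levels were called higher in the K149 arm than in the AS1949490 arm (log2 difference 0.30, 0.22 and 0.35). The part of that gap in the opposite signs was not tested. MRPS10, a protein of the small-subunit head, had 122.1 and 126.5 CPM with AS1949490, against 106.9 and 105.5 CPM in its DMSO libraries. With K149 it had 114.1, 117.6 and 113.1 CPM, against 121.2, 123.4 and 127.5 CPM in its DMSO libraries. The groups were apart in both arms and on opposite sides, with log2 folds of 0.23 ± 0.06 with AS1949490 (limma, adjusted p = 0.00414) and -0.11 ± 0.04 with K149 (limma, adjusted p = 0.0474). The fall with K149 lost the call under 9 alternatives, 7 of them leaving out 1 library (limma, adjusted p = 0.0613 to 0.158).

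MRPS16, a protein of the small-subunit body, had 70.0 and 71.7 CPM with AS1949490, against 61.8 and 60.7 CPM in its DMSO libraries, and 65.2, 69.2 and 60.4 CPM with K149, against 78.3, 75.6 and 81.0 CPM in its DMSO libraries. MRPL19, which sits at the interface between the subunits, had 70.2 and 75.3 CPM with AS1949490, against 65.8 and 63.5 CPM in its DMSO libraries, and 64.1, 59.8 and 62.1 CPM with K149, against 77.4, 79.8 and 81.9 CPM in its DMSO libraries. Neither gene's groups overlapped in either arm. Log2 folds with AS1949490 were 0.21 ± 0.07 for MRPS16 and 0.17 ± 0.06 for MRPL19. All 3 rises kept their direction but lost the call under TMM scaling, median-ratio scaling, edgeR and DESeq2 (adjusted p = 0.0567 to 0.549). With CPM as deposited, MRPL19 and MRPS16 also lost it in a fit of that arm alone (limma, adjusted p = 0.118 and 0.0552) and with the replicate block (limma, adjusted p = 0.0977 and 0.0617). MRPL19 lost the call under 18 alternatives in all, among them leaving out any 1 library of the AS1949490 arm. MRPS16 lost it under 10, among them without AS1949490 replicate 1, AS1949490 replicate 2 or DMSO replicate 2 of that arm (limma, adjusted p = 0.0706, 0.118 and 0.0618).

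**Figure D3:**
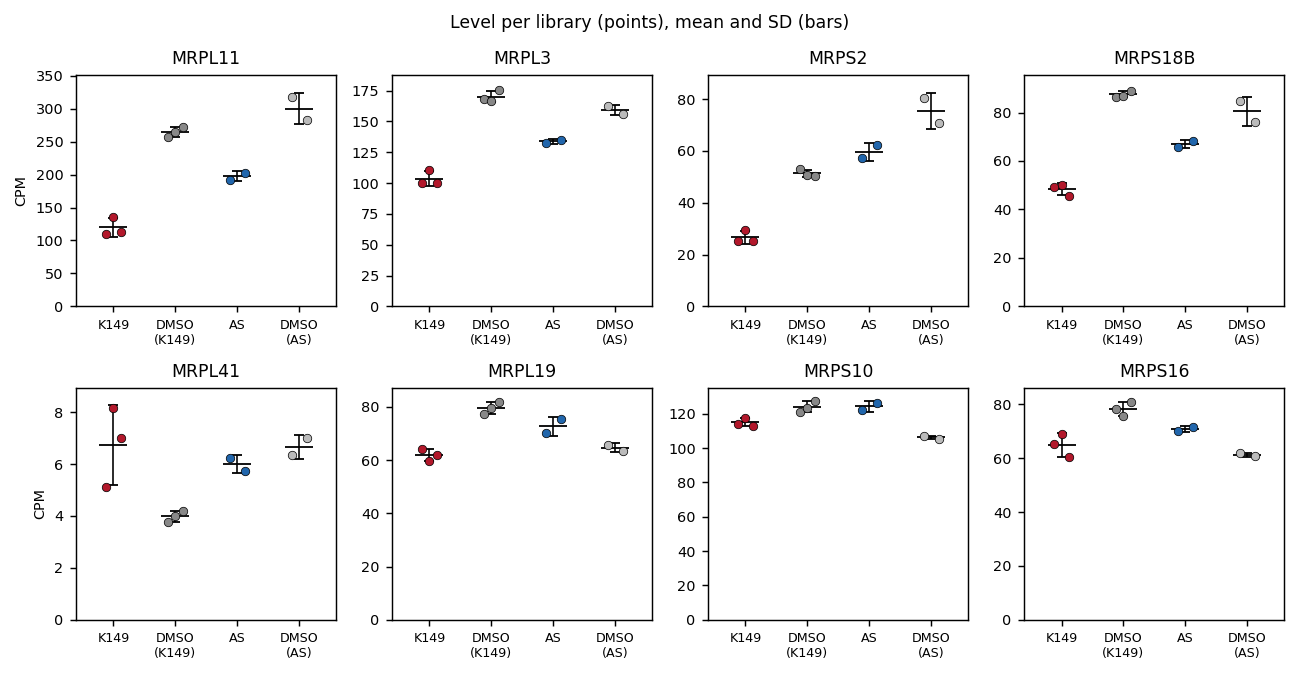
CPM of 8 members in each library (points) with the mean and SD of each group, K149 and its DMSO on the left and AS1949490 (AS) and its DMSO on the right of each panel. MRPL11, MRPL3, MRPS2 and MRPS18B lie below their DMSO in both arms, MRPL41 lies above it with K149, and MRPL19, MRPS10 and MRPS16 lie below it with K149 and above it with AS1949490.

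Member by member, 30 genes fell with both inhibitors, 28 fell with K149 and were not called with AS1949490, 3 fell with AS1949490 and were not called with K149 (MRPL40, MRPL53 and MRPL55), and 13 were called with neither. The remaining 4 are MRPL19, MRPS10, MRPS16 and MRPL41. MRPL40, MRPL53 and MRPL55, like MRPL10, are named after their values were seen. Their falls with AS1949490 lost the call without DMSO replicate 1 of that arm (limma, adjusted p = 0.357, 0.222 and 0.126), without either AS1949490 library and with no filter. Reads of MRPL53 are uncertain, because 45.2% of its exon bases also belong to other genes, with the largest overlap for CCDC142 on the same strand. Of the members that fell with K149, 30 of 61 also fell with AS1949490, and of those that fell with AS1949490, 30 of 33 also fell with K149. Among all genes tested 30.6% fell with K149 and 19.5% with AS1949490. Genes that fell with both were not counted there, so this overlap cannot be called particular to the members. Across the 78 genes, which are not independent and share one fit, Pearson's r between the folds was 0.42. The same r over all genes tested was not computed. The fold was lower with K149 than with AS1949490 for 59 of 78 (75.6%), as it was for 56.5% of all genes tested.

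The difference itself was tested as K149 effect minus AS1949490 effect. In the large subunit 11 of 49 genes had a lower fold with K149 and 3 a higher one, and in the small subunit 12 of 29 had a lower one and none a higher one. Among all genes tested 40.4% were called, 25.3% lower and 15.1% higher. The median difference was -0.14 for the large and -0.21 for the small subunit, against -0.06 for all genes tested. MRPL41 had the widest difference (0.75 ± 0.20, limma, adjusted p = 0.00953), followed by MRPS2 and MRPS27 (-0.59 each), MRPS18B and MRPL35 (-0.58 each) and MRPL11 (-0.54 ± 0.11). The doses differ between the arms, and so do the controls.

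MRPS27 and MRPL35 were among the members with the widest differences. MRPS27, an RNA-binding protein of the small subunit, had 67.6, 66.8 and 66.2 CPM with K149, against 94.6, 97.4 and 93.5 CPM in its DMSO libraries. It had 83.3 and 86.9 CPM with AS1949490, against 80.5 and 79.5 CPM in its DMSO libraries. MRPS27 was thus clearly lower with K149 and slightly above its controls with AS1949490, where its log2 fold of 0.09 ± 0.06 was not called (limma, adjusted p = 0.212). MRPL35, a large-subunit protein kept from bacteria, had 62.7, 62.5 and 59.2 CPM with K149, against 93.8, 97.0 and 97.9 CPM in its DMSO libraries. It had 62.9 and 67.4 CPM with AS1949490, against 69.0 and 66.3 CPM in its DMSO libraries. Its groups were far apart with K149 and overlapped with AS1949490. The treated means of MRPL35 were 61.45 CPM with K149 and 65.13 CPM with AS1949490. Its DMSO means were 96.26 CPM in the K149 arm and 67.68 CPM in the AS1949490 arm. For both genes the DMSO libraries of the K149 arm were called higher (log2 difference 0.25 for MRPS27 and 0.50 for MRPL35). These DMSO levels enter the difference of effects.

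**Figure D4:**
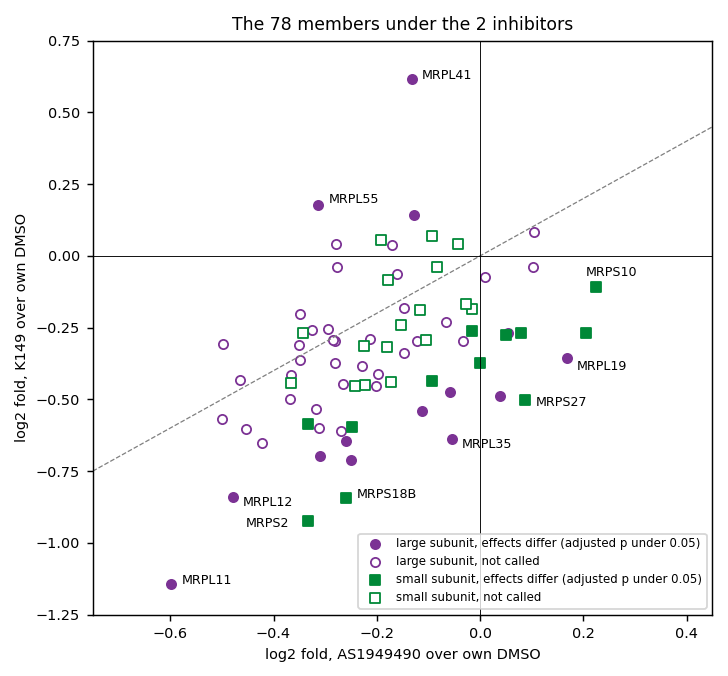
Log2 fold of each member with AS1949490 (horizontal) and with K149 (vertical), each over its own DMSO, circles for the large and squares for the small subunit, filled where the effects differ at an adjusted p under 0.05, with the line of equal folds dashed. Of 78 members, 59 lie below that line, and 23 of the 26 filled points do.

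The controls of the arms differed for 44.9% of the 78 members, a smaller share than among all genes tested. DMSO libraries of the K149 arm were higher than those of the AS1949490 arm for 8 and lower for 17 of 49 large-subunit genes, and higher for 6 and lower for 4 of 29 small-subunit genes (limma, adjusted p under 0.05). Among all genes tested 66.2% were called, 37.1% higher and 29.1% lower. MRPL35 (log2 difference 0.50) was near the upper end of the members, and MRPL41 (-0.62) was at the lower end. These libraries also enter the difference of effects, so both sets of values share them, and treatment arm and whatever else separated the arms cannot be told apart.

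Promoter windows were read from RefSeq (GRCh38.p14), 250 bases before to 50 after each start, for 69 of the 78 members. The core palindrome of NRF1 (a factor of nuclear genes for mitochondria) and the letters CCGGAAG (core of the ETS family, which includes GABPA), AAGATGGC (core of YY1) and CACGTG (the E-box bound by MYC) were searched on both strands. The ETS and YY1 letters can share 3 bases where they adjoin. The ETS letters were in 29 of 69 member windows (42%) and in 10.7% of 27305 windows of all genes, and the YY1 letters in 20 (29%) and 3.03%. The NRF1 palindrome was in 1 window (1.45%) and in 1.36% of all windows, and the E-box in 6 (8.7%) and 7.43%. The windows of all genes include genes that did not pass the filter on low values, whereas every member passed it. Windows of tested genes alone were not counted. The median share of G and C letters was 60.3% in member windows and 58.3% in all windows. Members with the ETS letters had a median log2 fold of -0.29 with K149 and -0.20 with AS1949490, and members without them -0.36 and -0.19. All 20 members with the YY1 letters fell with K149, as did 34 of the 49 without them, and both medians were -0.31. With AS1949490, 8 of the 20 and 20 of the 49 fell. Among all genes tested 30.6% fell with K149 and 19.5% with AS1949490, and genes outside the members were not counted by motif. A link between letters and falls was not tested. A match is a run of letters and not a site shown to be bound.

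The stretches before the start of 4 members are printed, leaving out any annotated exon: MRPL11 and MRPL3 because they fell with both inhibitors, and MRPL19 and MRPS10 because their folds had opposite signs. The MRPL11 stretch lies before the RefSeq start and inside the GENCODE span given above for the gene, which runs further upstream. Capitals mark the ETS letters, the 1 motif of the 4 found in these stretches. The MRPL11 stretch is chr11:66438849-66439098 (minus strand), the MRPL3 stretch chr3:131502984-131503221 (minus), the MRPL19 stretch chr2:75646533-75646782 (plus) and the MRPS10 stretch chr6:42217866-42218111 (minus).
MRPL11: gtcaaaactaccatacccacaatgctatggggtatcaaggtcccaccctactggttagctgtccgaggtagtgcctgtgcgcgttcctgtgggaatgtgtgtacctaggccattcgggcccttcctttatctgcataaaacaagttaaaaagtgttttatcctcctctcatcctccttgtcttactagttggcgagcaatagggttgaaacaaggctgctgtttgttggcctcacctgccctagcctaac
MRPL3: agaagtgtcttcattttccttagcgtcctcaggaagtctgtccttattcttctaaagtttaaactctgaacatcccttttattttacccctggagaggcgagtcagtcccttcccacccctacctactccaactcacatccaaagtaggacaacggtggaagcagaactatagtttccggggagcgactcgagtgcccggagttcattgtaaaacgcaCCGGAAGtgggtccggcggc
MRPL19: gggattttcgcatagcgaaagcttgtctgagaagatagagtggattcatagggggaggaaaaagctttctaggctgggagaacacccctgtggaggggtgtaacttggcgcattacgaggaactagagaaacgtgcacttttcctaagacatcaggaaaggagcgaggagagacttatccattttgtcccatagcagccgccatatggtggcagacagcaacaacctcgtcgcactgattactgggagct
MRPS10: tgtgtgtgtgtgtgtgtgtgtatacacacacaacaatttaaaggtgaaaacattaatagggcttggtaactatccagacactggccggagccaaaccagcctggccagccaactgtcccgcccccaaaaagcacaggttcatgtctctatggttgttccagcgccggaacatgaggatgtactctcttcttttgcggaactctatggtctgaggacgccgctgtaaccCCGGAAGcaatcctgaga
MRPL3 and MRPS10 each held 1 ETS match close to the start, and fell with K149, while with AS1949490 MRPL3 fell and MRPS10 rose. The full window of MRPS10 also held 1 match of the YY1 letters, not within the printed stretch. MRPL11 and MRPL19 held none of the 4 motifs in these stretches.

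Proteins of the mitochondrial ribosome whose symbols lie outside the MRP pattern were followed as well, and then other genes for mitochondrial gene expression. Such counts stand beside 30.6% of all genes tested that fell with K149 and 19.5% that fell with AS1949490. Of 6 such genes 5 fell with K149 (median log2 fold -0.29) and 2 with AS1949490 (median -0.13). PTCD3, an RNA-binding protein of the small subunit, averaged 63.9 ± 1.87 CPM with K149 and 96.3 ± 2.26 CPM in its DMSO libraries (SD, n = 3 each). With AS1949490 it averaged 79.8 ± 3.25 CPM, against 78.2 ± 4.83 CPM in its DMSO libraries (SD, n = 2 each), and was not called. AURKAIP1, a small-subunit protein, fell with both (log2 fold -0.30 ± 0.11 and -0.48 ± 0.14).

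Factors that build the ribosome and modify its RNA moved in both directions. Of 26 genes 14 fell and 4 rose with K149 (median log2 fold -0.18), and 8 fell and 3 rose with AS1949490 (median 0.005). C1QBP, a matrix protein needed for mitochondrial translation, fell with K149 (-0.73 ± 0.06) and with AS1949490 (-0.36 ± 0.08), as did MRM2, an rRNA methyltransferase (-0.66 ± 0.08 and -0.25 ± 0.10), and RBFA, a small-subunit assembly factor (-0.62 ± 0.08 and -0.37 ± 0.09). YBEY, an endoribonuclease, rose with K149 (0.90 ± 0.12) at a low level, 4.75 ± 0.63 CPM against 2.07 ± 0.25 CPM in its DMSO libraries (SD, n = 3 each). METTL15, which methylates the small-subunit rRNA, rose with AS1949490 (0.70 ± 0.10), as did NSUN4 (0.39 ± 0.08). DMSO levels of both were called higher in the K149 arm than in the AS1949490 arm (log2 difference 0.81 and 0.23). The part of these gaps in the rises was not tested.

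Of 13 translation factors 5 fell and 1 rose with K149, and 3 fell and 2 rose with AS1949490. The shares that fell, 38.5% and 23.1%, were near those of all genes tested. MRRF, which recycles ribosomes, fell with both (log2 fold -0.63 ± 0.06 with K149 and -0.25 ± 0.07 with AS1949490), as did TSFM, an elongation factor (-0.56 ± 0.08 and -0.25 ± 0.09). Of the exon bases of TSFM 28.5% are shared with other genes. GFM2, MRRF's partner in recycling, rose with both (0.36 ± 0.05 and 0.36 ± 0.06). MTRF1, a release factor, fell with K149 (-0.19 ± 0.08) and rose with AS1949490 (0.28 ± 0.09). The DMSO level of MTRF1 was called higher in the K149 arm than in the AS1949490 arm (log2 difference 0.34). The part of that gap in the opposite signs was not tested. Of 16 genes for mitochondrial transcription, DNA and RNA handling 12 fell and 1 rose with K149, and 6 fell and 4 rose with AS1949490. PNPT1, an RNA-degrading enzyme (-0.79 ± 0.05), TFAM, which packages mitochondrial DNA (-0.69 ± 0.05), and TWNK, the DNA helicase (-0.60 ± 0.06), led with K149.

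Of 10 nuclear regulators of mitochondrial genes 7 fell and 2 rose with K149 (median log2 fold -0.43), and 4 fell and 2 rose with AS1949490 (median 0.05). MYC averaged 37.1 ± 1.62 CPM with K149 and 92.0 ± 1.41 CPM in its DMSO libraries (SD, n = 3 each), a log2 fold of -1.29 ± 0.05. With AS1949490 MYC averaged 119.8 ± 2.33 CPM, against 180.0 ± 3.25 CPM in its DMSO libraries (SD, n = 2 each), a log2 fold of -0.58 ± 0.06. PPRC1, a coactivator of nuclear genes for mitochondria, fell with both (-1.15 ± 0.06 and -0.50 ± 0.07). Its relative PPARGC1B fell with K149 (-1.02 ± 0.10) and rose with AS1949490 (1.01 ± 0.12), and PPARGC1A rose with both (0.43 ± 0.10 and 0.63 ± 0.13). PPARGC1B averaged 9.09 CPM with K149, against 19.46 CPM in its DMSO libraries. With AS1949490 it averaged 14.74 CPM, against 6.90 CPM. The DMSO groups themselves differed (log2 difference 1.38 for PPARGC1B, 1.59 for PPARGC1A, -0.96 for MYC and -0.83 for PPRC1, K149 arm minus AS1949490 arm, all called). The part of these gaps in the folds was not tested.

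The rRNAs made from mitochondrial DNA were not lower with either inhibitor. MT-RNR2, the rRNA of the large subunit, averaged 2415 ± 82.8 CPM with K149 and 1710 ± 110 CPM in its DMSO libraries (SD, n = 3 each), and 1430 ± 74.8 CPM with AS1949490 and 1089 ± 75.4 CPM in its DMSO libraries (SD, n = 2 each). It rose with both inhibitors (log2 fold 0.50 ± 0.06 and 0.39 ± 0.07). MT-RNR1, the rRNA of the small subunit, rose with AS1949490 (0.41 ± 0.10), and with K149 its log2 fold of 0.12 ± 0.08 was not called (limma, adjusted p = 0.192). Of the 13 mitochondrially encoded mRNAs 6 fell and 3 rose with K149 (median -0.11), and 10 fell and none rose with AS1949490 (median -0.35). MT-CYB fell with both (-0.30 ± 0.06 and -0.65 ± 0.07). MT-CO1 rose with K149 (0.19 ± 0.06) and fell with AS1949490 (-0.19 ± 0.07).

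Genes outside the mitochondrial ribosome fell as well. Of 22 other mitochondrial housekeeping genes 19 fell with K149 (median log2 fold -0.40), and 9 fell and 3 rose with AS1949490 (median -0.15). TOMM40, the pore of the outer membrane's import complex, fell with both (-1.14 ± 0.06 and -0.61 ± 0.07). Of 79 tested genes of cytosolic ribosomal proteins 73 fell and 1 rose with K149 (median -0.37), and 76 fell and none rose with AS1949490 (median -0.33). The members' median under K149 (-0.31) lay between those of all genes tested (0.04) and of the cytosolic ribosomal proteins.

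**Figure D5:**
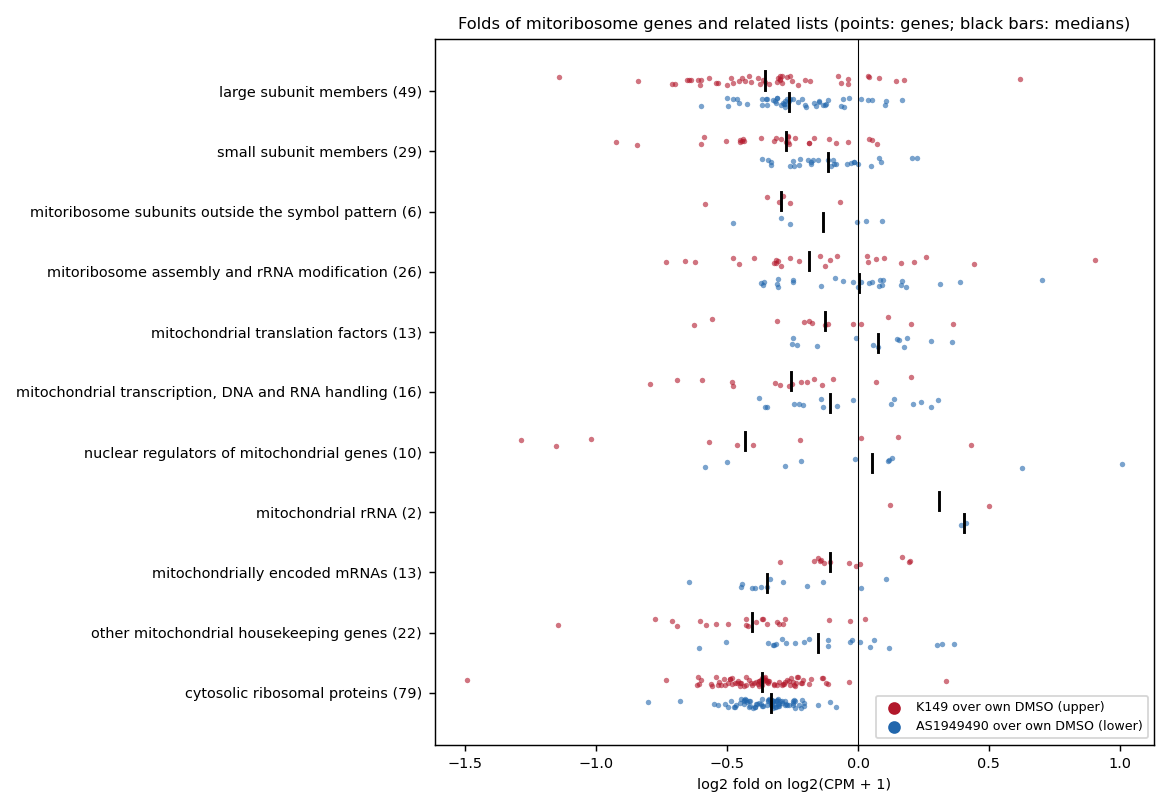
Log2 folds of single genes (points) and their medians (black bars) for the members of each subunit and 9 related lists, K149 in red (upper row of each list) and AS1949490 in blue (lower row), each over its own DMSO. Medians of both subunits lie below 0 with both inhibitors, as do those of the cytosolic ribosomal proteins, and those of the mitochondrial rRNAs lie above 0.

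Within the members, the fold was weakly related to level and length. Across the 78 genes, which are not independent replicates and share libraries, Pearson's r between the log2 fold and the log2 level per kb was -0.25 with K149 and -0.11 with AS1949490. Between the log2 fold and the log2 number of exon bases it was -0.01 with K149 and 0.29 with AS1949490. Of the 78 genes 41 share at least 1 exon base with another gene, 27 of them with a main partner on the opposite strand. Taking all partners together, 10 share at least 25%.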

How the data were processed

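RNA of 10 KYSE-410 libraries was sequenced. The submitters' processing notes name STAR 2.5.3a, HTSeq and the hg38 build. Annotation, counting rules and strand were not given in the sources used here. What the authors deposited is a single CPM table (reads scaled by library size) of 58302 gene IDs, and 58039 IDs matched GENCODE 29, used for positions, exon lengths and shared exon bases.

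CPM values are not counts, so the test was limma 3.58.1 (R 4.3.3, empirical Bayes with trend) on log2(CPM + 1), in place of the count test that the design named first. The test covered the 17837 genes that averaged at least 1 CPM in 1 or more of the 4 groups, with 10 libraries and 4 group means in 1 fit, Benjamini-Hochberg adjustment over all of them, and a call at an adjusted p under 0.05. SE is the standard error of a log2 fold. The fit was also run on simulated counts that held no shift common to a whole library, so that run does not test the calls made here.

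CPM values were whole multiples of about 0.05, from which reads per library were inferred (scaled to a common total near 20 M and rounded up, a step recorded in no source used here). In all 10 libraries values came out whole for 100.0% of genes within 0.1 of a step, and the inferred reads were ambiguous by at most 1 read. Some low steps held no gene in K149 replicate 3 and in DMSO replicate 1 of the AS1949490 arm, and edgeR was also run on the other 8 libraries. EdgeR 4.0.16 and DESeq2 1.42.0 were run on those reads as alternatives, beside other scalings, filters, pseudocounts, a replicate block and leaving out each library. EdgeR on the recovered reads called 63 members lower with K149 and 50 with AS1949490.

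Groups came from the titles, apart from 1 DMSO library that was placed by its library name, since its title gives no arm. Replicate numbers were not taken as pairs. No pair of replicates agreed within sampling noise. The members and gene lists were chosen with earlier results of these data known. Named members were those called with the widest folds (6 large and 4 small a direction and comparison, arm mean of at least 5 CPM), the 6 widest differences of effects, the highest 3 and lowest 2 levels of each subunit, MRPL12, the MRPS18 paralogs, MRPS30 and MRPS36, and of each other list the 3 widest called folds per comparison. Genes that share at least 25% of their exon bases with another gene are called uncertain. Promoter windows came from RefSeq.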

Additional observations from a re-analysis of the deposited data

Results flagged for a closer look

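Effects of the inhibitors differed by the test of the difference itself (limma, adjusted p under 0.05, K149 effect minus AS1949490 effect, log2) for 26 of 78 members (33.3%), a smaller share than the 40.4% of all genes tested. The difference was positive for MRPL41 (0.75), MRPL55 (0.489) and MRPL10 (0.271). MRPL41 rose with K149, MRPL55 fell with AS1949490, and MRPL10 was called with neither, though it passed with K149 in a fit of that arm alone.

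It was negative for 11 large-subunit genes. These were MRPL35 (-0.584), MRPL11 (-0.544), MRPL42 (-0.527), MRPL19 (-0.525), MRPL3 (-0.46), MRPL36 (-0.429), MRPL24 (-0.417), MRPL37 (-0.389), MRPL46 (-0.384), MRPL12 (-0.361) and MRPL50 (-0.324). All 11 fell with K149.

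It was negative for 12 small-subunit genes as well. These were MRPS2 (-0.592), MRPS27 (-0.592), MRPS18B (-0.584), MRPS16 (-0.474), MRPS5 (-0.371), MRPS15 (-0.35), MRPS30 (-0.349), MRPS25 (-0.343), MRPS10 (-0.334), MRPS35 (-0.325), MRPS9 (-0.255) and MRPS23 (-0.246). All 12 fell with K149, and MRPS10 and MRPS16 rose with AS1949490. Doses and controls differ between the arms, and the DMSO groups differed for several of these genes, among them MRPS2 (-0.544, K149 arm minus AS1949490 arm) and MRPL35 (0.502).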

How the results depend on the processing

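The falls with K149 kept their direction and number: leaving out 1 library gave 36 to 40 large-subunit genes that fell, 1 to 2 that rose and medians of -0.415 to -0.308, and 18 to 23 small-subunit genes that fell, 0 that rose and medians of -0.324 to -0.256. A fit of the K149 arm alone gave 2 large-subunit genes that rose. The results with AS1949490 rest on 2 libraries a group and moved most. Leaving out 1 library gave 10 to 34 large-subunit genes that fell, 0 to 1 that rose and medians of -0.359 to -0.152, and 1 to 16 small-subunit genes that fell, 1 to 2 that rose and medians of -0.279 to -0.001. Where a group was left with 1 library, that library is assumed to vary like the others.

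For AS1949490, no filter gave 15 large-subunit genes that fell and 0 that rose, and 4 small-subunit genes that fell. TMM scaling, median-ratio scaling, edgeR and DESeq2 each gave 0 large- and 0 small-subunit genes that rose and 13 small-subunit genes that fell. DESeq2 medians were -0.385 for the large and -0.234 for the small subunit. A fit of this arm alone and the replicate block each gave 0 large-subunit genes that rose, and 5 small-subunit genes that fell and 1 that rose. EdgeR on the 8 libraries whose low steps all held genes gave 0 large- and 0 small-subunit genes that rose and 5 small-subunit genes that fell.

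The replicate numbers of the titles were not taken as pairs. In the K149 arm deviations of same-numbered libraries had r of 0.101, 0.046 and -0.012. In the AS1949490 arm the library names carry other numbers than the titles, and 2 libraries a group give a single value of r (-0.242), which cannot test pairing. With the replicate block 59 members fell with K149 and 26 with AS1949490, and 17 differed with a lower K149 effect. Crossed pairing in the AS1949490 arm, chosen after seeing the data, gave 40 that fell and 0 large-subunit genes that rose.

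For K149 effect minus AS1949490 effect, leaving out 1 library gave 5 to 18 large-subunit genes that were lower, 1 to 6 higher and medians of -0.221 to -0.037, and 9 to 15 small-subunit genes lower, 0 to 1 higher and medians of -0.3 to -0.106. Large-subunit genes that were lower numbered 7 with no filter and 6 with DESeq2.

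Between the DMSO groups, leaving out 1 library gave 10 to 24 large-subunit genes lower in the K149 arm, 4 to 8 higher and medians of -0.248 to -0.027, and 3 to 8 small-subunit genes lower, 4 to 7 higher and medians of -0.169 to 0.056. The small-subunit median (-0.01) turned positive without DMSO replicate 1 of the K149 arm (0.015), without DMSO replicate 1 of the AS1949490 arm (0.056), and without members that share at least 25% of exon bases (0.008). DESeq2 gave 4 large-subunit genes higher and 8 small-subunit genes lower, edgeR 9 and TMM 7 small-subunit genes lower. The cause was not tested in any of these. For the 37 members whose own folds were rerun, no called fold changed sign. Members named only among the flagged differences, such as MRPL24 and MRPS5, were not rerun in this way. Counted over members and alternatives, 30 of 777 values under K149 lost the call (MRPS18A 11, MRPS10 9, MRPS11 5 and MRPS24 5) and 4 gained it, and 79 of 814 under AS1949490 lost it (14 members, MRPL19 with 18 the most) and 25 gained it (7 members). Both totals include members not called in the fit of all libraries, which cannot lose a call, so they understate the share lost. The named members were chosen in part for wide folds in these same data, which favours keeping the call. At about 0.05 CPM a read, depth limits members below 10 CPM such as MRPL41 and MRPL23 more than the others.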
